A study of Mus musculus with 21 samples.

Results

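The genes described here are 36 mouse genes that encode the contractile apparatus of skeletal muscle fibres and its calcium and energy supply, out of 26852 genes in the deposited expression table. They were chosen by name as parts of that apparatus. By role, 8 belong to the thin filament and its troponins (Acta1, Neb, Tnnt1, Tnnt3, Tnni1, Tnni2, Tnnc1 and Tnnc2) and 11 to the thick filament (Myh1, Myh2, Myh4, Myh7, Myh8, Myl1, Mylpf, Myl2, Myl3, Mybpc1 and Mybpc2). A further 7 belong to the Z-disc and titin (Actn2, Actn3, Ttn, Myoz1, Xirp2, Tcap and Ldb3), 7 to calcium handling (Atp2a1, Ryr1, Casq1, Casq2, Pvalb, Cacna1s and Trdn) and 3 to muscle metabolism (Ckm, Mb and Eno3). Values were present for 35 of the 36, and Myh8, the perinatal myosin heavy chain, was not analysed here. Of the 35, 15 had a mean of at least 3.32 on the log2 scale (10 normalized counts) over all libraries and were tested, and 20 did not. A gene could pass that filter through a single group in which it was high, so counts over the 15 describe those genes and not all 36.

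Skeletal muscle fibres are packed with sarcomeres, in which myosin thick filaments pull on actin thin filaments that are anchored at the Z-disc. A nerve impulse opens calcium channels of the sarcoplasmic reticulum, calcium binds troponin, and the reticular calcium pump ends the contraction. Fast and slow fibres use different isoforms of most of these proteins. Bone marrow stroma builds no sarcomeres, but marrow is harvested from bones to which skeletal muscle attaches, and Nestin, the marker used to sort these cells, is also made by developing muscle and by cells of blood vessel walls.

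The study asked how bone marrow stromal cells differ when they lie next to human acute myeloid leukaemia (AML) cells. The libraries came from Nes low cells of Nestin+ NSG mice, an immunodeficient strain whose Nestin reporter marks stromal cells, and all hosts were unconditioned and 8 to 12 weeks old at transplantation. HL60 and ML1, established human AML lines, carried a secreted, membrane-crossing mCherry that nearby cells take up, so that early after engraftment mCherry-positive stromal cells (early ch+) could be sorted apart from mCherry-negative ones (early ch-). Unengrafted mice of the same strain gave 3 control libraries (ctrl), and each line gave 3 early ch+, 3 early ch- and 3 late libraries, the last from heavily engrafted marrow, 21 in all.

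Several features limit these groups. Bone pieces were digested and crushed with a mortar, the suspension was strained, blood cells of both species were depleted with beads and the remaining cells were sorted, after staining for CD45, Ter119 and CD31 by the study's methods, and the labels name no step aimed at muscle, so carry-over of muscle RNA is possible. The extraction protocol in the labels speaks of CD31-positive endothelial cells where the source label says Nes low stroma. In the data, Cxcl12, the chemokine gene that defines these stromal cells, read 14.89 to 16.44 on the log2 scale over the 21 libraries, and Pecam1, which encodes CD31, read 4.53 to 6.21. The treatment label of the ML1 late libraries says unengrafted, against their titles and time point, and for some of the results that rest on them the value without them is given below. The paper says that the ch- cells came from the same marrow as the ch+ cells, but neither it nor the labels say which ch+ library goes with which ch- library or which came from separate mice. All tests treat the libraries as independent, and p-values measure the spread between these libraries.

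The values were log2 expression values that the authors had regularized, a step that pulls genes with few reads toward a floor of their own. Read counts were not analysed here, so the depth behind a value is unknown, and the linear values of every late library summed to less than those of every other library. Low genes showed the floor directly: Myh7, the slow myosin heavy chain, read -1.97 to -1.93 and Tnnc1, slow troponin C, read -0.52 to -0.30, each within 0.25 of its own lowest value in 21 of 21 libraries. Myoz1, Mybpc2 and Trdn were that close to their lowest value in 18 libraries, Myl2, Myl3 and Tnni1 in 17, and Actn2 in 16. Among the tested genes, Xirp2 and Mb were at that floor in 6 of 6 late libraries, Acta1 and Ckm in 5 and Tnnt3, Mylpf, Atp2a1 and Mybpc1 in 4. Casq2 had its floor elsewhere, in 4 of 6 early ch+ libraries and in no late library.

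**Figure D1:**
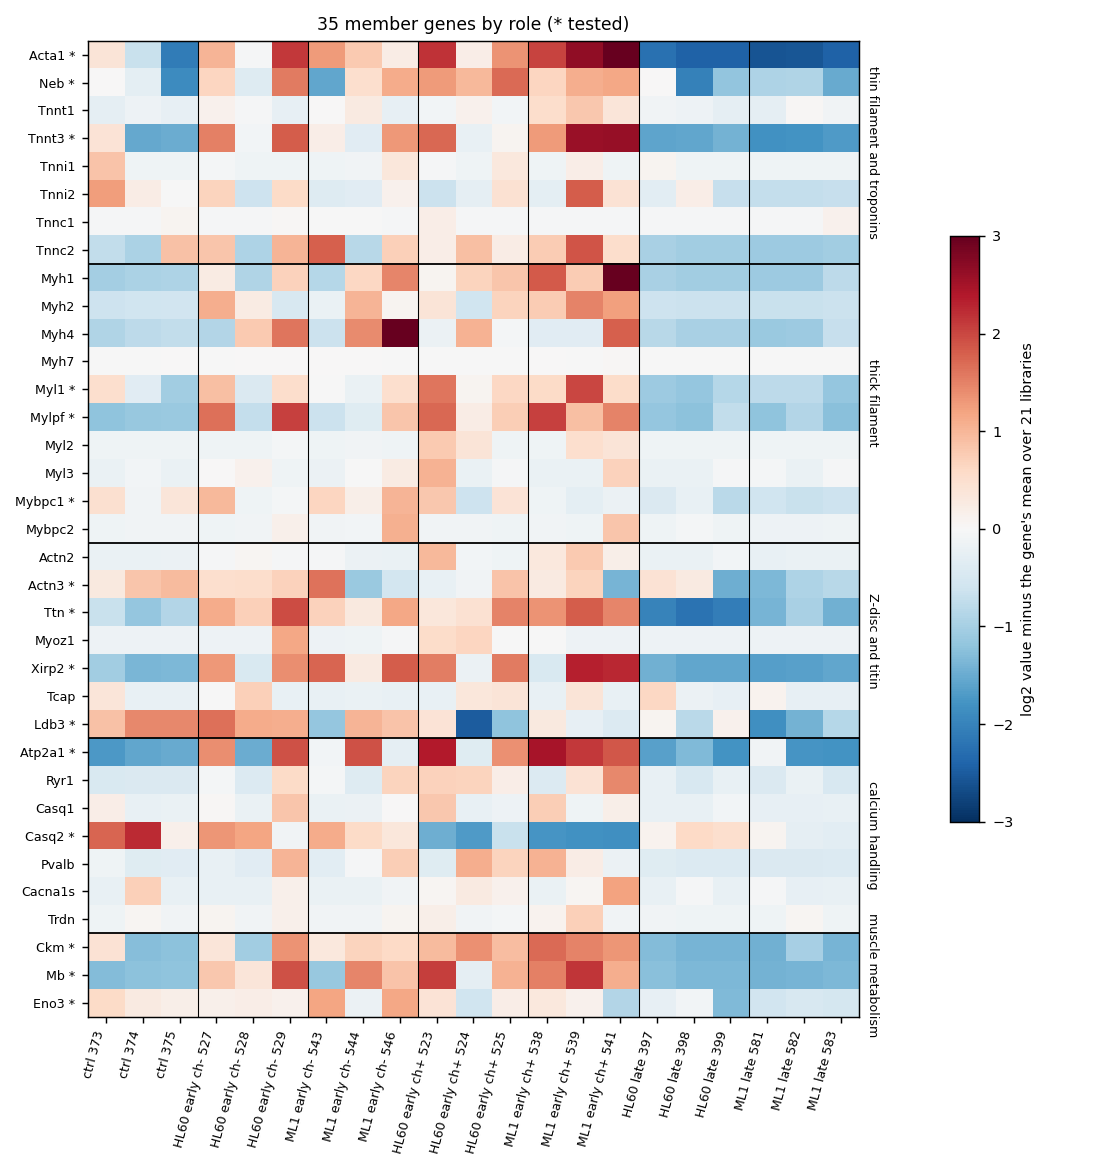
Heat map of the 35 genes with values (vertical axis, by role) in the 21 libraries (horizontal axis, by group), coloured by the log2 value minus that gene's mean over all libraries. Most tested genes are high in the early ch- and early ch+ columns and low in the late ones, Casq2 is lowest in the early ch+ columns, and the row of Myh7 has a range of only -1.97 to -1.93.

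Most of the tested sarcomere genes had higher values in early ch+ cells than in unengrafted controls: 10 of the 15 tested genes were called higher (limma, adjusted p under 0.1 over all 12976 tested genes), where 3.41% of all tested genes were, and 2 were called lower, where 2.75% were. Among the 10, Mylpf, Mb, Xirp2 and Atp2a1 were under the filter level in every control and passed through the early groups, and the summed linear value of all 35 genes was lower in HL60 early ch+ library 524 (597) than in every control (647 to 786). In early ch- cells 4 of 15 were higher, against 1.13% of all tested genes, and 0 were lower, against 0.786%. Of these 4, Xirp2, Atp2a1 and Mb were likewise under the filter level in every control and passed through the early groups. The early ch+ and early ch- comparisons share the same 3 controls and are not independent. Between early ch+ and early ch- cells 2 of 15 were lower, against 2.68% of all tested genes, and 0 were higher, against 3.58%; at an unadjusted p under 0.05, 6 of the 15 differed, against 15.4% of all tested genes. Of these 6, Acta1, Myl1, Atp2a1 and Ckm were on the higher side and Ldb3 and Casq2 on the lower, and the median log2 fold change of the 15 was 0.55. By line, the median was -0.08 with HL60, where 2 of 15 had an unadjusted p under 0.05 (beside 12.5%), both lower, and 0.94 with ML1, where 10 of 15 did (beside 13.8%). After rescaling to library totals the 2 called genes were Casq2, lower, and Ckm, higher. In early ch- against ctrl 8 of the 15 had an unadjusted p under 0.05, the 4 called ones among them, against 11.9% of all tested genes.

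In late cells most of the tested genes were lower than in early cells. Against early ch+ cells 10 of 15 were lower in late cells, beside 10.9% of all tested genes, and 1 was higher, beside 8.79%. Against early ch- cells 13 of 15 were lower, beside 12.3%, and 0 were higher, beside 10.2%. There 14 of 15 had an unadjusted p under 0.05, beside 28.2% of all tested genes. Of the genes lower in both comparisons, Mylpf, Mb, Xirp2 and Atp2a1 passed the filter through the early groups. They were under its level in every control and, but for Atp2a1 in ML1 late library 581, in every late library. Their lower late values partly restate that filter. Against ctrl 4 of 15 were lower, beside 11.4% of all tested genes, and 0 were higher, beside 10.2%, with 7 at an unadjusted p under 0.05 beside 27.6%. Of the 10 genes that rose in early ch+ cells, Acta1 alone was among these 4. In bulk libraries such as these, fewer cells of a type and less RNA per cell cannot be told apart.

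How far these counts rested on single libraries differed by comparison. Leaving out ctrl library 373 took late against ctrl from 4 to 2 genes. Leaving out the ML1 late libraries took it to 1, which was none of the 4. Leaving out ctrl library 374 or 375 took early ch- against ctrl from 4 to 2, and leaving out HL60 early ch- library 528, which had low values for several genes, took it to 7. The 2 genes called between early ch+ and early ch- became 1 without any of HL60 early ch- 527 or 528, ML1 early ch- 544 or 546, HL60 early ch+ 525 or ML1 early ch+ 541. The 12 calls of early ch+ against ctrl stayed between 8 and 12, and the 11 of late against early ch+ stayed at 11, with any library left out.

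Acta1 encodes skeletal alpha-actin, the backbone of the thin filament. Its log2 values were 5.51, 4.44 and 3.03 in the controls. In early ch- cells they were 6.13, 5.09 and 7.23 with HL60 and 6.41, 5.91 and 5.35 with ML1, and in early ch+ cells 7.29, 5.32 and 6.47 with HL60 and 7.16, 7.79 and 8.32 with ML1. The controls were spread widely, and HL60 early ch+ library 524 and 2 early ch- libraries fell within their range. In late cells Acta1 read 2.89, 2.71 and 2.70 with HL60 and 2.53, 2.55 and 2.70 with ML1, tightly grouped and below every control and every early library. For Acta1 the early ch- difference from controls was 1.69 (SE 0.52, adjusted p = 0.123, 4 of 6 libraries above every control), not called. Acta1 was 6.63-fold higher in early ch+ cells than in controls (log2 fold change 2.73, SE 0.52, adjusted p = 0.00119), with 5 of 6 libraries above every control. With a library left out, Acta1 rose there by 2.08 (without ctrl 375) to 3.32 (without ctrl 373). It fell by 1.65 on the log2 scale in late cells against controls (SE 0.52, adjusted p = 0.0265), with 6 of 6 libraries below every control, but without ctrl library 373 the call was lost (-1.06, adjusted p = 0.244), as it was without the ML1 late libraries (-1.56, adjusted p = 0.123). Against early ch+ cells the late value fell by 4.38 (SE 0.42, adjusted p = 7.24e-09), the lowest fold change of the 15 in that comparison, with all 6 late libraries below all 6 early ch+ libraries.

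Neb encodes nebulin, the giant protein that runs along the thin filament and sets its length, and had the highest mean of this role over the 21 libraries. It read 5.18, 4.88 and 3.29 in controls, 5.81, 4.79 and 6.73 in HL60 early ch- and 3.63, 5.68 and 6.29 in ML1 early ch- cells. In early ch+ cells it read 6.45, 6.16 and 6.88 with HL60 and 5.82, 6.27 and 6.33 with ML1, all above the controls, while early ch- values spread from inside the control range to well above it. Late values were 5.19, 3.15 and 3.99 with HL60 and 4.26, 4.27 and 3.65 with ML1, overlapping the controls, and 5 of 6 lay above the lowest early ch- library, ML1 early ch- 543. Neb rose by 1.87 in early ch+ cells against controls (SE 0.51, adjusted p = 0.0318), with 6 of 6 libraries above every control, and the call was lost without ctrl library 375 (1.29, adjusted p = 0.267) and without the filter (adjusted p = 0.115). Late against ctrl, its difference was -0.37 (SE 0.51, adjusted p = 0.713), not called.

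Tnnt3, fast troponin T, ties the troponin complex to tropomyosin. Controls read 4.62, 2.68 and 2.72, so that ctrl library 373 stood well above the other 2. Early ch- values ran from 3.87 to 6.02, early ch+ values from 3.98 to 6.83 and late values from 2.40 to 2.78. Tnnt3 rose by 2.21 in early ch+ cells against controls (SE 0.55, adjusted p = 0.0175), with 4 of 6 libraries above every control, and this call was lost without ctrl library 374 (1.88, adjusted p = 0.127) or 375 (1.90, adjusted p = 0.117). The other troponins stayed under the filter. Tnnc2, fast troponin C, which binds calcium, read 2.47, 2.26 and 4.09 in controls, 2.30 to 5.01 in early ch-, 3.41 to 5.11 in early ch+ and 2.12 to 2.23 in late cells. Tnni2, the fast inhibitory subunit, had its highest control value at 4.29 and read 2.39 to 4.84 in early ch+ and 2.31 to 3.23 in late cells, with overlap between all groups. The slow troponins Tnnt1 (1.33 to 2.40 over the 21 libraries) and Tnni1 (0.44 to 1.43) stayed low throughout.

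Of the thick filament, the fast regulatory light chain Mylpf moved most among the tested genes. Controls read 2.36, 2.43 and 2.45, which is the floor of this gene. All 6 early ch- libraries (2.84 to 5.62) and all 6 early ch+ libraries (3.78 to 5.61) lay above them, and late libraries (2.32 to 2.83) lay in or near the control range, 2 of them above and 2 below every control. Mylpf was 5.04-fold higher in early ch+ cells than in controls (log2 fold change 2.33, SE 0.47, adjusted p = 0.00259, 6 of 6 libraries above every control). Its early ch- difference from controls was 1.62 (SE 0.47, adjusted p = 0.101), just outside the threshold although 6 of 6 libraries lay above every control. Myl1, the fast essential light chain that stiffens the myosin neck, read 4.23, 3.38 and 2.68 in controls and 3.81 to 5.72 in early ch+ cells. It was called higher at 1.19 (SE 0.38, adjusted p = 0.0787, 5 of 6 libraries above every control), the weakest of the 10 calls, and lost the call without ctrl library 374 (1.17, adjusted p = 0.194), ctrl 375 (0.82, adjusted p = 0.389), HL60 early ch+ 523 (1.05, adjusted p = 0.14) or ML1 early ch+ 539 (0.97, adjusted p = 0.158). Quantile normalization, sample weights, a fit of the compared groups alone and the absence of a filter also ended the Myl1 call.

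Mybpc1 encodes the slow form of myosin-binding protein C, a brace on the thick filament, and was the tested gene that differed least between early ch+ cells and controls. It read 4.37, 3.77 and 4.25 in controls, 4.85, 3.75 and 3.83 in HL60 early ch- and 4.52, 4.06 and 4.90 in ML1 early ch- cells. In early ch+ cells it read 4.69, 3.26 and 4.30 with HL60 and 3.76, 3.60 and 3.70 with ML1, and in late cells 3.46, 3.66 and 3.08 and 3.29, 3.23 and 3.27. Early groups overlapped the controls on both sides, and all 6 late libraries lay below all 3 controls. The early ch+ difference from controls was -0.25 (SE 0.33, adjusted p = 0.765) and the late one -0.80 (SE 0.33, adjusted p = 0.1), neither called. Only against early ch- cells was Mybpc1 called, lower in late cells by 0.99 (SE 0.27, adjusted p = 0.00881), with 6 of 6 late libraries below every early ch- library.

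The myosin heavy chains, the motors themselves, stayed below the filter, yet the fast ones were above their floor in most early libraries. Within 0.25 of their lowest value were 2 early ch- libraries for Myh1, 1 early ch- and 1 early ch+ library for Myh2 and 1 early ch- library for Myh4. Myh1 read 1.95, 2.02 and 2.04 in controls, 3.21, 2.06 and 3.66 and 2.10, 3.59 and 4.43 in HL60 and ML1 early ch- cells, and 3.05, 3.62 and 3.79 and 4.82, 3.72 and 6.46 in HL60 and ML1 early ch+ cells. All 6 early ch+ libraries and all 6 early ch- libraries lay above the controls, though HL60 early ch- library 528 and ML1 early ch- library 543 did so by under 0.25. Myh2 reached 4.07 and Myh4 reached 5.56, the latter in ML1 early ch- library 546, while in late cells they read 1.91 to 1.97 and 0.59 to 1.005. With every gene of the table tested and no filter, 9 of the 35 genes were higher in early ch+ cells than in controls, beside 0.998% of all 26852 genes, and Casq2 was lower. Myh1 joined that list at a log2 fold change of 2.24 (SE 0.57, adjusted p = 0.0565), and Neb, Myl1 and Ldb3 left it. Myh1, Myh2 and Myh4 are close copies that lie side by side on chromosome 11 between 67171027 and 67260446 (mm10), and reads they share could be split among them, so the value of each is uncertain. The slow and cardiac light chains Myl2 (0.44 to 1.37 over the 21 libraries) and Myl3 (1.000 to 2.26), and Mybpc2, the fast myosin-binding protein C (1.01 to 2.22), were near their floor in most libraries.

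**Figure D2:**
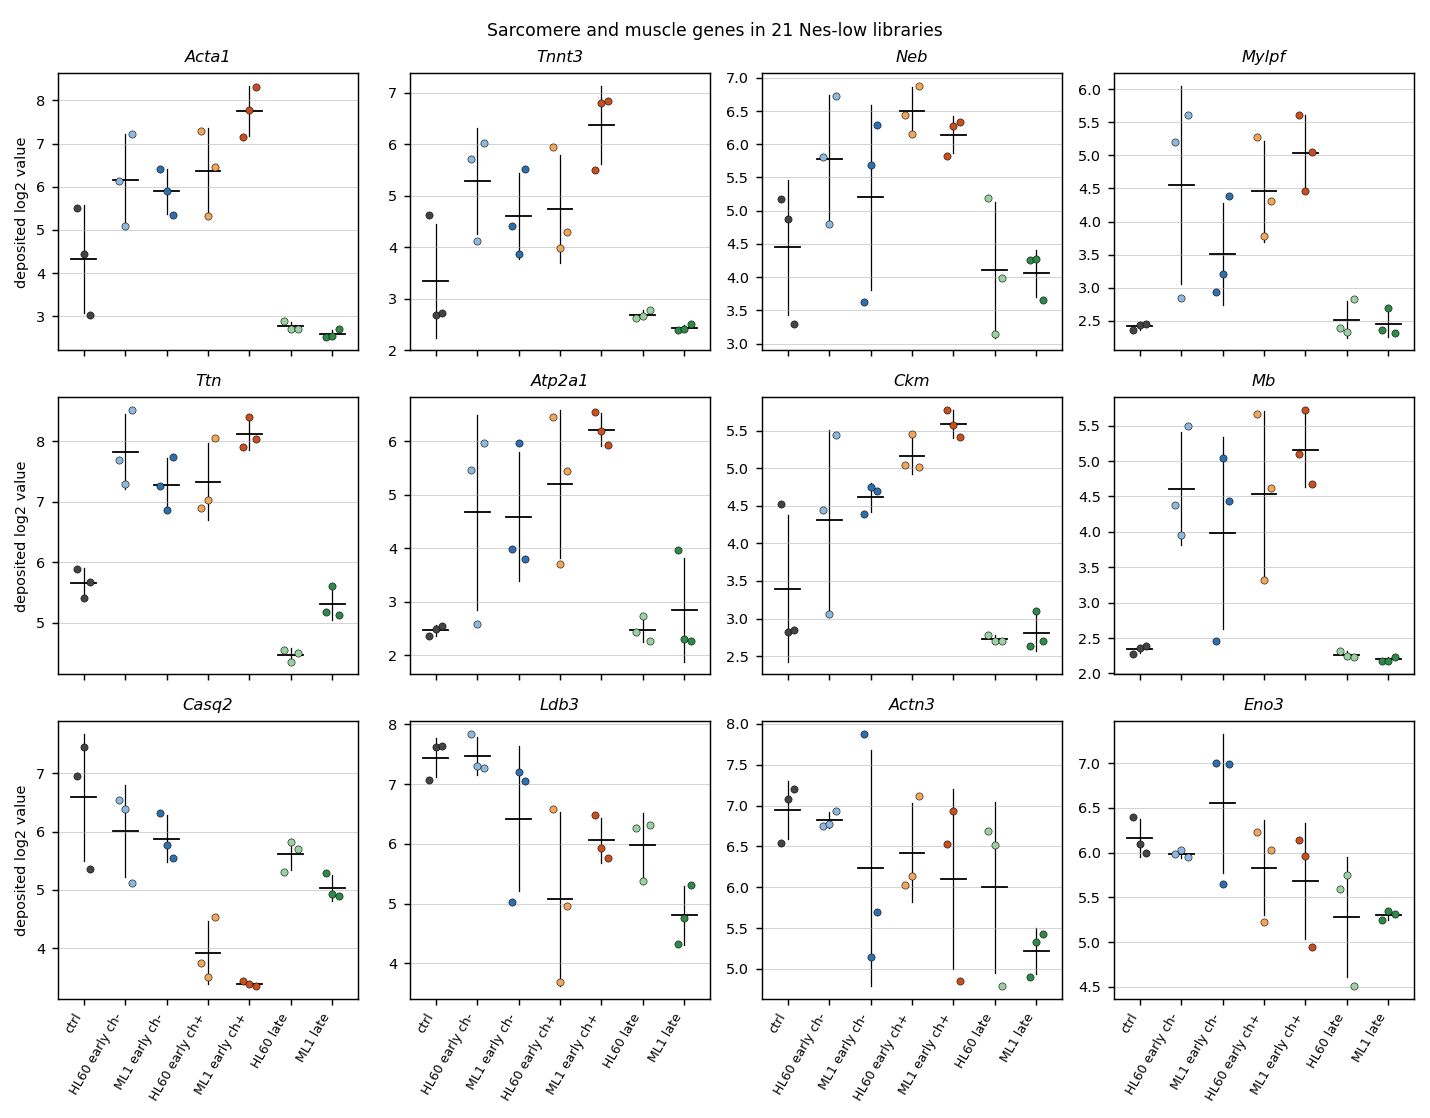
Log2 values (vertical axes) of 12 of the tested genes in the 7 groups of 3 libraries (horizontal axes), with each point a library, the bar the group mean and the line 1 SD. Acta1 is between 2.53 and 2.89 in the late libraries and between 5.09 and 8.32 in the early ones, Casq2 is between 3.36 to 4.54 in early ch+ cells and higher in every other library, and for Eno3 the early groups overlap the controls while the late values lie below them.

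Ttn encodes titin, the elastic filament that spans from Z-disc to the middle of the sarcomere. Controls read 5.90, 5.41 and 5.68, a narrow range. Early ch- cells read 7.68, 7.29 and 8.52 with HL60 and 7.25, 6.86 and 7.73 with ML1, and early ch+ cells 6.90, 7.03 and 8.06 and 7.91, 8.40 and 8.04. Every early library lay above every control, and the early groups overlapped each other. Late cells read 4.56, 4.35 and 4.51 with HL60, below every control, and 5.18, 5.60 and 5.12 with ML1, overlapping the controls. Against the shared controls Ttn was 4.16-fold higher in early ch+ cells (log2 fold change 2.06, SE 0.36, adjusted p = 0.000515) and 3.71-fold higher in the ch- cells (log2 fold change 1.89, SE 0.36, adjusted p = 0.0032), with 6 of 6 libraries above every control in each. Both calls held with any library left out and under every alternative setting tried.

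Xirp2, which encodes an actin-binding repeat protein of the Z-disc and of intercalated discs, went the same way from a lower base. Controls read 2.86, 2.51 and 2.55, early ch- 3.43 to 5.71, early ch+ 3.44 to 6.23 and late 2.25 to 2.46. All 12 early libraries lay above all controls, and all 6 late ones were at the floor of the gene. It rose by 2.43 in early ch+ cells (SE 0.51, adjusted p = 0.00336) and by 2.27 in their ch- counterparts (SE 0.51, adjusted p = 0.0182), with 6 of 6 libraries above every control in each. Tcap, the cap protein of titin (1.33 to 2.28 over the 21 libraries), Actn2, an alpha-actinin shared by all fibres (1.216 to 2.40), and Myoz1, a calcineurin-binding protein of fast fibres (0.46 to 1.77), were not tested.

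Ldb3 and Actn3 did not follow titin. Ldb3, which encodes a PDZ and LIM domain protein that holds alpha-actinin at the Z-disc, read 7.07, 7.63 and 7.63 in controls and 5.03 to 7.84 in early ch- cells. It read 6.58, 3.68 and 4.96 in HL60 early ch+, 6.48, 5.93 and 5.77 in ML1 early ch+ and 4.33 to 6.31 in late cells, all below the controls. Ldb3 fell by 1.87 in early ch+ cells against controls (SE 0.55, adjusted p = 0.0477, 6 of 6 libraries below every control), a call lost without ctrl library 374 (-1.78, adjusted p = 0.16) or 375 (-1.78, adjusted p = 0.155), or without the filter (adjusted p = 0.17). Against early ch- cells it fell by 1.38 (SE 0.45, adjusted p = 0.0788, 2 of 6 libraries below every early ch- library), and 8 libraries ended that call when left out: HL60 early ch- 527 (-1.20, adjusted p = 0.18), 528 (-1.31, adjusted p = 0.155) and 529 (-1.31, adjusted p = 0.141), ML1 early ch- 544 (-1.33, adjusted p = 0.134) and 546 (-1.36, adjusted p = 0.119), HL60 early ch+ 524 (adjusted p = 0.221) and 525 (-1.26, adjusted p = 0.155) and ML1 early ch+ 541 (-1.42, adjusted p = 0.1). It was also lost without the filter (adjusted p = 0.249), after rescaling to library totals (-1.23, adjusted p = 0.105) and with robust variance (adjusted p = 0.107). Late against controls Ldb3 fell by 2.05 (SE 0.55, adjusted p = 0.00812, 6 of 6 libraries below every control), and the difference was -1.46 (adjusted p = 0.137) without the ML1 late libraries. Actn3, the fast-fibre alpha-actinin, read 6.54, 7.09 and 7.21 in controls, 5.14 to 7.88 in early ch-, 4.85 to 7.12 in early ch+ and 4.79 to 6.68 in late cells. Its early ch+ difference of -0.68 (SE 0.50, adjusted p = 0.54) was not called. Its late fall of 1.34 (SE 0.50, adjusted p = 0.0683, 5 of 6 libraries below every control) was lost without ctrl 374 (-1.27, adjusted p = 0.177), ctrl 375 (-1.21, adjusted p = 0.207), HL60 late 399 (-1.18, adjusted p = 0.128), ML1 late 581 (-1.20, adjusted p = 0.131), 582 (-1.28, adjusted p = 0.11) or 583 (-1.30, adjusted p = 0.103), and was -0.95 (adjusted p = 0.391) without all 3 of the latter. Without the filter it was not called either (adjusted p = 0.183).

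Calcium handling held the largest differences in both directions among the 15 tested genes in early ch+ cells against controls. Atp2a1 encodes the calcium pump of the fast-fibre sarcoplasmic reticulum. Controls read 2.35, 2.501 and 2.55, early ch- cells 5.47, 2.58 and 5.97 with HL60 and 3.98, 5.98 and 3.80 with ML1, and early ch+ cells 6.45, 3.71 and 5.45 with HL60 and 6.54, 6.18 and 5.92 with ML1. Every early library lay above every control, HL60 early ch- library 528 by little. Late cells read 2.43, 2.74 and 2.27 with HL60 and 3.97, 2.30 and 2.27 with ML1, where ML1 late library 581 alone was well above the controls. Atp2a1 was 9.45-fold higher in early ch+ cells than in controls (log2 fold change 3.24, SE 0.60, adjusted p = 0.000941, 6 of 6 libraries above every control), the highest fold change of the 15. In early ch- cells it was higher by 2.16 (SE 0.60, adjusted p = 0.0754, 6 of 6 libraries above every control), a call lost without any of ctrl 373 (2.10, adjusted p = 0.199), 374 (2.18, adjusted p = 0.212) or 375 (2.20, adjusted p = 0.183), HL60 early ch- 527 (1.99, adjusted p = 0.141) or 529 (1.89, adjusted p = 0.161), or ML1 early ch- 544 (1.89, adjusted p = 0.158). Quantile normalization, robust variance, sample weights and the absence of a filter ended it too.

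Casq2, the cardiac and slow-fibre calsequestrin that stores calcium inside the reticulum, moved against Atp2a1. Controls read 6.95, 7.44 and 5.36. Early ch- cells read 6.54, 6.38 and 5.11 with HL60 and 6.32, 5.78 and 5.54 with ML1, and late cells 5.31, 5.82 and 5.71 and 5.29, 4.93 and 4.90, so that early ch- and late values overlapped. In early ch+ cells Casq2 read 3.74, 3.50 and 4.54 with HL60 and 3.44, 3.39 and 3.36 with ML1. All 6 early ch+ libraries lay below all 15 others. Casq2 fell by 2.92 in early ch+ cells against controls (SE 0.40, adjusted p = 2.24e-05, 7.58-fold, 6 of 6 libraries below every control). With a library left out, that log2 fold change ran from -3.53 (without ctrl 375) to -2.49 (without ctrl 374). Against early ch- cells Casq2 fell by 2.28 (SE 0.33, adjusted p = 1.96e-05, 6 of 6 libraries below every early ch- library). It was the gene called higher in late than in early ch+ cells, by 1.66 (SE 0.33, adjusted p = 0.000417, 6 of 6 libraries above every early ch+ library). Late against controls it fell by 1.26 (SE 0.40, adjusted p = 0.0299, 4 of 6 libraries below every control), a call lost without ctrl library 373 (-1.08, adjusted p = 0.136) or 374 (-0.83, adjusted p = 0.255), and was -0.97 (adjusted p = 0.263) without the ML1 late libraries.

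The other calcium genes were below the filter. Ryr1, the calcium release channel of the reticulum, read 1.83 to 1.87 in controls, 1.88 to 2.96 in early ch-, 1.88 to 3.74 in early ch+ and 1.82 to 2.10 in late cells. Pvalb, parvalbumin, the soluble calcium buffer of fast fibres, read 1.43 to 1.65 in controls and 1.34 to 1.41 in late cells and reached 2.81 in early ch- and 2.87 in early ch+ libraries. All 12 early libraries lay above every control for Ryr1, some of them barely, while for Pvalb 4 of 6 early ch+ and 3 of 6 early ch- libraries did. Casq1, the fast calsequestrin (1.38 to 2.45 over the 21 libraries), Cacna1s, the voltage sensor that triggers release (1.38 to 2.82), and Trdn, which links calsequestrin to the release channel (0.70 to 1.53), stayed close to their floor in most libraries.

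Of the metabolic genes, Ckm, muscle creatine kinase, which regenerates ATP, read 4.52, 2.82 and 2.85 in controls, 3.05 to 5.44 in early ch-, 5.01 to 5.78 in early ch+ and 2.64 to 3.09 in late cells. Early ch+ values all lay above the controls, of which ctrl library 373 was the high one as it was for Tnnt3 and Acta1. Ckm rose by 1.98 in early ch+ cells against controls (SE 0.39, adjusted p = 0.00203, 6 of 6 libraries above every control). Mb, myoglobin, the oxygen store of oxidative fibres, read 2.28, 2.36 and 2.38 in controls, 2.45 to 5.50 in early ch-, 3.32 to 5.72 in early ch+ and 2.17 to 2.32 in late cells. It was 5.69-fold higher in early ch+ cells (2.51, SE 0.47, adjusted p = 0.000976) and 3.88-fold higher in early ch- cells (1.96, SE 0.47, adjusted p = 0.0308), with 6 of 6 libraries above every control in each. The early ch- call was lost without ctrl library 374 (1.96, adjusted p = 0.115) or 375 (1.98, adjusted p = 0.11), and without the filter (adjusted p = 0.129).

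Eno3, the muscle form of the glycolytic enzyme enolase, barely separated the groups. It read 6.40, 6.10 and 5.997 in controls, 5.98, 6.03 and 5.95 in HL60 early ch- and 7.004, 5.65 and 6.99 in ML1 early ch- cells. In early ch+ cells it read 6.23, 5.23 and 6.02 with HL60 and 6.14, 5.96 and 4.95 with ML1, and in late cells 5.59, 5.74 and 4.51 and 5.24, 5.35 and 5.31. All early groups overlapped the controls, and all late libraries lay below them. Its early ch+ difference from controls was -0.41 (SE 0.36, adjusted p = 0.617) and its late difference -0.87 (SE 0.36, adjusted p = 0.101), neither called, although against early ch- cells the late value fell by 0.98 (SE 0.29, adjusted p = 0.0184, 5 of 6 libraries below every early ch- library).

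**Figure D3:**
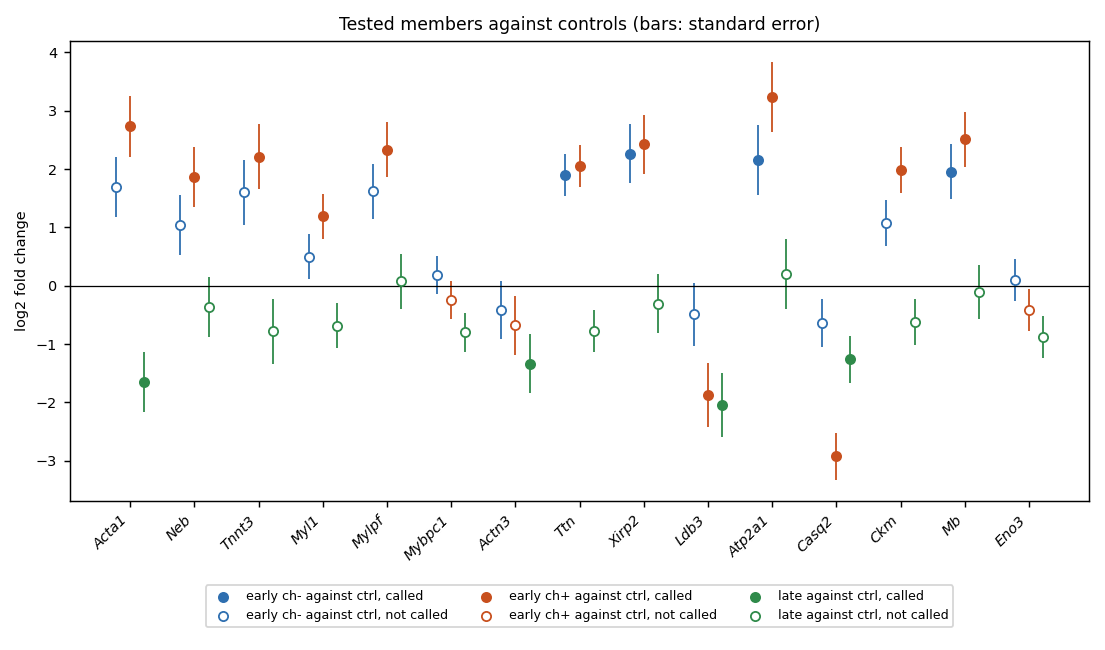
Log2 fold changes (vertical axis) of the 15 tested genes (horizontal axis) for early ch-, early ch+ and late cells against the same 3 controls, with bars of 1 SE and filled symbols where the adjusted p was under 0.1. Early ch+ symbols reach 3.24 for Atp2a1 and -2.92 for Casq2, and late symbols lie between -2.05 for Ldb3 and 0.20 for Atp2a1.

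Set against early ch+ cells, late cells had lower values for genes of every role, with Casq2 the exception given above. Beside Acta1, the thin filament gene Neb fell by 2.23 (SE 0.42, adjusted p = 0.000199, 6 of 6), where the last count is of late libraries below every early ch+ library, and Tnnt3 by 2.99 (SE 0.45, adjusted p = 1.11e-05, 6 of 6). In the thick filament Myl1 fell by 1.88 (SE 0.31, adjusted p = 4.53e-05, 6 of 6) and Mylpf by 2.26 (SE 0.39, adjusted p = 6.53e-05, 6 of 6). Giant and Z-disc proteins went likewise, as Ttn fell by 2.83 (SE 0.29, adjusted p = 2.46e-08, 6 of 6) and Xirp2 by 2.74 (SE 0.41, adjusted p = 1.17e-05, 6 of 6). The pump gene Atp2a1 fell by 3.04 (SE 0.49, adjusted p = 2.87e-05, 5 of 6), and of the metabolic genes Ckm fell by 2.61 (SE 0.32, adjusted p = 4.47e-07, 6 of 6) and Mb by 2.62 (SE 0.38, adjusted p = 6.45e-06, 6 of 6). As said above, Mylpf, Xirp2, Atp2a1 and Mb passed the filter through the early groups, so their falls partly restate it. For calcium handling the fall rests on Atp2a1 alone. Differences of -0.55 for Mybpc1, -0.66 for Actn3, -0.18 for Ldb3 and -0.46 for Eno3 were not called.

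As medians over the 15 tested genes, the log2 fold change was 1.98 in early ch+, 1.07 in early ch- and -0.78 in late cells against the shared controls, beside 0.01, 0.01 and 0.02 over all 12976 tested genes. Among the 15, Mylpf, Mb, Xirp2 and Atp2a1 were under the filter level in every control and passed through the early groups. The medians of the early groups therefore partly restate that filter. The late figures depend on scaling. Rescaling the libraries to equal totals moved the late median of all genes from 0.02 to 0.71 and that of the 15 from -0.78 to -0.08, so relative to all genes the 15 lay lower by about the same amount either way. Of the 4 genes called lower in late cells, Ldb3 alone kept its call after that rescaling, and Acta1 was then at -0.96 (adjusted p = 0.117), Actn3 at -0.65 (adjusted p = 0.25) and Casq2 at -0.57 (adjusted p = 0.239). Against early ch- cells 13 calls became 8, without Neb, Myl1, Mybpc1, Ldb3 and Eno3, while against early ch+ cells all 11 held. Without the ML1 late libraries, Neb, Mybpc1, Ldb3 and Eno3 lost their calls against early ch- cells. The rescaled fits called 64% of all tested genes in late cells against ctrl, 78.3% against early ch- and 69.6% against early ch+, in either direction. These counts alone do not set the sarcomere genes apart from other genes.

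With the lines apart, sarcomere genes were called in early ch+ cells of each. In HL60 early ch+ cells 10 of 15 tested genes were called against ctrl, where 5.33% of all tested genes were called in either direction, and in ML1 early ch+ cells 9 of 15, where 6.69% were. Among the 15, Mylpf, Mb, Xirp2 and Atp2a1 were under the filter level in every control and passed through the early groups. Both counts can therefore partly restate that filter. Without HL60 early ch+ library 523 the HL60 count was 4. With no filter 3 of 35 were called with HL60 (Ttn higher, Ldb3 and Casq2 lower), beside 1.59% of all 26852 genes, and 12 of 35 with ML1, beside 2.35%. Acta1 rose by 2.03 with HL60 (SE 0.55, adjusted p = 0.0343, 2 of 3 libraries above every control) and by 3.43 with ML1 (SE 0.55, adjusted p = 0.000154, 3 of 3), and Casq2 fell by 2.66 with HL60 (SE 0.47, adjusted p = 0.000635) and by 3.19 with ML1 (SE 0.47, adjusted p = 4.06e-05), 3 of 3 libraries below every control in each. Tnnt3 was called with ML1 at 3.03 (SE 0.56, adjusted p = 0.000905, 3 of 3) and not with HL60, where it differed by 1.39 (SE 0.56, adjusted p = 0.201). Ldb3 was called with HL60, where it fell by 2.36 (SE 0.54, adjusted p = 0.00923, 3 of 3), and not with ML1, where it differed by -1.38 (SE 0.54, adjusted p = 0.172).

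In early ch- cells 3 of 15 were called with HL60 (Mylpf, Ttn and Mb), beside 1.57% of all tested genes. With ML1 2 of 15 were called (Ttn and Xirp2), beside 2.34%. Mylpf, Mb and Xirp2 were under the filter level in every control and passed through the early groups. The HL60 count was 1 without HL60 early ch- library 529, 5 without ctrl 373, 7 without HL60 early ch- 528, 6 without HL60 early ch+ 524 and 5 without ML1 early ch+ 538. The ML1 count was 4 without ctrl 373 or without HL60 early ch+ 524. Ttn rose by 2.17 with HL60 (SE 0.36, adjusted p = 0.000655) and by 1.62 with ML1 (SE 0.36, adjusted p = 0.0147), 3 of 3 libraries above every control in each. Between early ch+ and early ch- cells of the same line, 2 of 15 differed with HL60 (Ldb3 and Casq2), beside 3.92% of all tested genes, and 3 of 15 with ML1, beside 4.25%. With ML1 these were Casq2, which fell by 2.48 (SE 0.47, adjusted p = 0.00118, 3 of 3 libraries below every ML1 early ch- library), Acta1, which rose by 1.86 (SE 0.55, adjusted p = 0.0654, 3 of 3 above), and Tnnt3, which rose by 1.77 (SE 0.56, adjusted p = 0.0929, 2 of 3 above). The HL60 count was 1 without HL60 early ch+ library 524, and the ML1 count was 1 without ML1 early ch+ library 539 or 541.

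In late cells 3 of 15 were called with HL60 (Acta1, Ttn and Ldb3), beside 13.7% of all tested genes, and 4 of 15 with ML1 (Acta1, Actn3, Ldb3 and Casq2), beside 22%. The HL60 count was 1 without ctrl 374 or without any HL60 late library. After rescaling to library totals limma called 0 of 15 with HL60, 0 being at an unadjusted p under 0.05, and with ML1 Ldb3 alone, where 42.6% and 67.7% of all tested genes were called in either direction. Ttn fell by 1.19 with HL60 (SE 0.36, adjusted p = 0.0291, 3 of 3 libraries below every control), and Ldb3 fell by 2.64 with ML1 (SE 0.54, adjusted p = 0.000532, 3 of 3). Tested directly between the lines, limma called 0 of 15 for late (4.09% of all tested genes), 0 for early ch+ (0.0154%) and 0 for early ch- libraries (0.0539%). At an unadjusted p under 0.05 these were 2, 3 and 0 of 15, beside 10.9%, 7.61% and 6.82% of all tested genes. The test of whether the ch+ to ch- difference itself differed between the lines also called 0 of 15 (0.00771% of all tested genes), with 5 at an unadjusted p under 0.05 beside 6.4%. For Acta1 that difference was -1.66 (adjusted p = 0.778) and for Tnnt3 -2.32 (adjusted p = 0.66), so neither was shown to differ between HL60 and ML1.

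Isoforms of fast and of slow fibres were listed apart, and the difference between the lists was not tested. Of the 14 fast genes (Myh1, Myh2, Myh4, Myl1, Mylpf, Tnnt3, Tnni2, Tnnc2, Mybpc2, Actn3, Atp2a1, Casq1, Pvalb and Myoz1) 5 were tested, and 4 of these rose in early ch+ cells, beside 3.41% of all tested genes. Mylpf and Atp2a1, among the 4, were under the filter level in every control and passed through the early groups. Of the 7 listed as slow (Myh7, Myl2, Myl3, Tnnt1, Tnni1, Tnnc1 and Casq2) Casq2 alone was tested, so this set rests on 1 gene. Among the untested ones Tnnt1, named after its values were seen, had 6 of 6 early ch+ libraries above every control (1.51 to 2.40 against 1.34 to 1.44), and slow isoforms cannot be judged as a set here. Mybpc1, a tested slow isoform outside that list, differed by -0.25 from controls in early ch+ cells and was not called. Summed on the linear scale, the fast genes came to 192 to 216 in controls, 186 to 394 in early ch-, 188 to 486 in early ch+ and 81.5 to 156 in late libraries. The slow genes came to 49.5 to 182, 43 to 102, 20.9 to 32.5 and 38.6 to 64.8 in the same order. Pooled over the 21 libraries, Actn3 was the most abundant fast gene at 37.3% of the sum, and Casq2 made up 84.2% of the slow sum. Single libraries differed: in ML1 early ch+ library 541 Actn3 read 4.85, against 6.83 for Tnnt3. Over all 35 genes the sums were 647 to 786 in controls, 784 to 1435 in early ch-, 597 to 1477 in early ch+ and 296 to 440 in late libraries.

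Levels of the 15 tested genes were compared per kilobase of exonic length, as group means of the log2 value per kilobase. In controls Actn3 (5.41, SD 0.35, n = 3), Eno3 (5.37, SD 0.21), Casq2 (5.13, SD 1.09) and Ldb3 (4.83, SD 0.32) led on this scale. Neighbours in that order did not differ beyond their spread, but all 3 control values of Eno3 lay above all 3 of Ldb3. Acta1 (3.71, SD 1.24) came next and Ttn (-1.20, SD 0.24) last of the 15. In early ch+ cells the order of the 15 per kilobase began with Acta1 (6.44, SD 1.06, n = 6), Eno3 (4.96, SD 0.53), Tnnt3 (4.89, SD 1.216), Actn3 (4.73, SD 0.81) and Mylpf (4.66, SD 0.68), of which Eno3, Tnnt3, Actn3 and Mylpf lay within each other's spread. Mb (4.27), Atp2a1 (3.91), Ckm (3.84) and Myl1 (3.57) followed per kilobase. Lower still were Ldb3 (2.96), Casq2 (2.21), Mybpc1 (1.71), Neb (1.59), Xirp2 (1.49) and Ttn (0.85).

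Across the 21 libraries, which include the group differences above, the tested genes fell into a coherent set and a remainder. The Pearson r of each gene with the mean of the other 14 was 0.935 for Acta1, 0.920 for Tnnt3, 0.903 for Ttn and 0.889 for Myl1. It was 0.877 for Mb, 0.867 for Xirp2, 0.856 for Ckm, 0.844 for Mylpf, 0.803 for Atp2a1 and 0.776 for Neb. These 10 are the genes called higher in early ch+ cells. The calls and the r values share the same libraries and group differences, and the mean of the other 14 is mostly made of these genes. Their match is therefore no separate result. The remaining genes were at 0.594 (Mybpc1), 0.453 (Eno3), 0.263 (Ldb3), 0.248 (Actn3) and -0.38 (Casq2). Between pairs, Acta1 and Tnnt3 had r = 0.933 and Atp2a1 and Casq2 r = -0.555 (n = 21).

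Other genes of striated muscle, outside the 36, moved in both directions in early ch+ cells. Of 36 further sarcomere and cytoskeleton genes, 35 had values and 15 were tested, with 2 higher and 4 lower in early ch+ cells than in controls and a median log2 fold change of -0.16. Xirp1, the relative of Xirp2, fell by 2.37 (SE 0.47, adjusted p = 0.00198, 6 of 6 libraries below every control) where Xirp2 rose. Pdlim3, which encodes an actinin-associated LIM protein, fell by 1.88 (SE 0.40, adjusted p = 0.00352, 6 of 6), and Ankrd23, a titin-associated ankyrin repeat gene, rose by 1.92 (SE 0.40, adjusted p = 0.0034, 6 of 6 above every control). Tpm1, a tropomyosin gene also used outside muscle, was the most abundant of that list (64.9% of its sum) at 12.88 to 13.16 in controls and 12.46 to 12.91 in early ch+ cells. Among the genes of the other muscle lists that were under the filter, 39 with values, 3 had all 6 early ch+ libraries above every control, beside 0.656% of all 13876 untested genes, and 0 had all 6 below, beside 0.728%. At least 4 libraries lay above every control for 11 of them (beside 6.7%) and below for 1, Clcn1, a chloride channel gene (beside 9.53%). In early ch- cells at least 4 lay above for 15 (beside 22.6%) and below for 0 (beside 2.2%), so values above the controls were not particular to early ch+ cells. The genes named next were chosen after their values were seen. Myot, myotilin of the Z-disc, read 2.08 to 2.14 in controls and 2.98 to 4.56 in early ch+ cells, Mylk2, the skeletal myosin light chain kinase, 1.17 to 1.18 and 1.44 to 2.45, and Cox8b, a muscle form of a cytochrome oxidase subunit, 0.57 to 0.58 and 0.63 to 1.16, with 6 of 6 early ch+ libraries above every control for each. For Myot and Cox8b this also held for 6 of 6 early ch- libraries. For Myoz2, Cox6a2 and Cacng1 it was 5 of 6 early ch+ libraries. Against controls, early ch- cells had 0 of the 15 tested sarcomere and cytoskeleton genes called by limma, with 1 at an unadjusted p under 0.05.

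Of 22 further genes of excitation and calcium handling, 10 were tested, and 0 were higher and 2 lower in early ch+ cells than in controls. Jph2, which holds the reticulum to the surface membrane, fell by 2.25 (SE 0.40, adjusted p = 0.000657, 6 of 6 libraries below every control), and Dmd, dystrophin, the most abundant of the list (36.8% of its sum), fell by 1.21 (SE 0.26, adjusted p = 0.0044, 6 of 6). Sgca, a dystrophin-associated sarcoglycan, differed by -0.63 (SE 0.50, adjusted p = 0.571), not called. Of 16 further metabolic genes 7 were tested and 0 called by limma in either direction, 0 being at an unadjusted p under 0.05. These included Pygm, muscle glycogen phosphorylase, at -0.73 (SE 0.38, adjusted p = 0.35), Fabp3, a fatty acid carrier, at -0.55 (SE 0.40, adjusted p = 0.532) and Slc2a4, the insulin-responsive glucose carrier, at -0.54 (SE 0.55, adjusted p = 0.675). Ak1, adenylate kinase, was the most abundant (26.3% of the sum) at -0.03 (SE 0.24, adjusted p = 0.97). In late cells Pygm fell by 2.05 against controls (SE 0.38, adjusted p = 0.000224, 6 of 6 libraries below every control).

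Pax7 set early ch+ cells apart, and other genes of muscle stem cells did so less evenly. Pax7, the defining factor of satellite cells, read 5.997, 5.86 and 4.45 in controls, 6.93, 7.30 and 5.81 in HL60 early ch- and 7.47, 4.95 and 6.64 in ML1 early ch- cells. In early ch+ cells it read 2.96, 2.97 and 2.80 with HL60 and 3.07, 2.86 and 2.98 with ML1, below every other library of the series, and in late cells 4.38, 4.33 and 5.21 and 4.89, 5.44 and 5.29. Pax7 fell by 3.58 in early ch+ against early ch- cells (SE 0.36, adjusted p = 5.01e-08) and by 2.49 against controls (SE 0.44, adjusted p = 0.00055), 6 of 6 libraries below every reference library in each. Myf5 and Myod1, the early myogenic factors, were under the filter and read 2.30 to 2.94 and 1.74 to 1.77 in early ch+ against 2.91 to 4.99 and 1.97 to 3.43 in early ch- cells. Calcr, a receptor of quiescent satellite cells, read 1.51 to 1.53 and 1.53 to 3.05 in the same groups. With no filter, Myf5 fell by 1.69 (SE 0.28, adjusted p = 0.00169), Myod1 by 0.92 (SE 0.21, adjusted p = 0.0229) and Calcr by 0.80 (SE 0.21, adjusted p = 0.051) between them. Against controls Myf5 fell by 1.34 (SE 0.35, adjusted p = 0.0656), with 6 of 6 libraries below every control, and Myod1 at -0.67 (SE 0.25, adjusted p = 0.286) and Calcr at -0.27 (SE 0.25, adjusted p = 0.815) were not called. The early ch+ and early ch- values did not overlap for Myod1, and for Myf5 and Calcr ML1 early ch- library 546 alone lay in the early ch+ range.

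Factors of later muscle differentiation were near their floor in every group. Myog read -0.39 to 0.19, Myf6 -2.32 to -2.31, and the fusion genes Mymk and Mymx -0.17 to 0.10 and -2.32 to -2.30 over the 21 libraries. Pax3 (1.06 to 2.02) and Vgll2 (-0.11 to 0.96), further regulators, were also low, while Cdh15, the muscle cadherin, read 5.79 to 8.13. Cdh15 was not called in early ch+ cells, at -0.42 against controls (SE 0.35, adjusted p = 0.602) and -0.17 against early ch- cells (SE 0.29, adjusted p = 0.842). Six4 (7.69 to 8.59), Mef2a (10.79 to 11.78), Mef2c (8.92 to 11.88) and Mef2d (9.70 to 10.73) act in many tissues and were plainly expressed. Of the 15 regulators of this list 6 were tested, and Pax7 alone was called in early ch+ cells against controls. In late cells Mef2c fell by 2.22 (SE 0.23, adjusted p = 6.87e-08, 6 of 6 libraries below every control), Mef2a by 0.71 (SE 0.14, adjusted p = 0.00032, 6 of 6) and Mef2d by 0.44 (SE 0.17, adjusted p = 0.0675, 5 of 6). Rescaled to equal totals, Mef2a was at -0.02 (adjusted p = 0.925) and Mef2d at 0.25 (adjusted p = 0.225), neither called. That rescaling moved the late median of all genes from 0.02 to 0.71, so both genes lay below the median either way. The Mef2d call was also lost without ctrl 374 (-0.36, adjusted p = 0.257), ctrl 375 (-0.46, adjusted p = 0.134), HL60 late 397 (-0.38, adjusted p = 0.135) or HL60 late 399 (-0.40, adjusted p = 0.119).

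Most heart genes were low in all 21 libraries, with Myh6 at -0.90 to -0.48, Tnni3 at -0.06 to 0.08, Actc1 at -0.36 to 0.63, Nppa at -1.71 to -1.64, Mybpc3 at -1.79 to -1.77, Gata4 at -0.56 to -0.01 and Myl4 at 1.74 to 3.05 over the 21 libraries. With no filter, Actc1, cardiac actin, fell by 0.51 (SE 0.12, adjusted p = 0.0325) in early ch+ and by 0.51 (SE 0.12, adjusted p = 0.00922) in late cells against controls. Its controls read 0.63, 0.17 and -0.36, so that ctrl library 375 was as low as the early ch+ libraries (-0.36 to -0.35). The genes Tnnt2, Nppb, Myl7 and Nkx2-5 of the same list were not analysed here. The cardiac genes that passed the filter, Pln and Ryr2, also serve smooth muscle. Pln, phospholamban, the brake on the reticular calcium pump and 69.1% of the sum of its list, read 8.44, 8.75 and 7.81 in controls, 6.99 to 8.05 in early ch-, 4.42 to 6.71 in early ch+ and 5.04 to 7.19 in late cells. Pln fell by 2.77 in early ch+ cells against controls (SE 0.42, adjusted p = 7.48e-05, 6 of 6 libraries below every control) and Ryr2, a calcium release channel, by 1.62 (SE 0.44, adjusted p = 0.0323, 6 of 6), the latter lost without ctrl library 374 (-0.94, adjusted p = 0.329).

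Markers of smooth muscle moved with Casq2, Ldb3, Pln and Pax7 in early ch+ cells. Of 11 smooth muscle genes (Acta2, Myh11, Tagln, Cnn1, Smtn, Myocd, Mylk, Lmod1, Synpo2, Actg2 and Rgs5), all tested, 9 were lower in early ch+ cells than in controls and 0 higher, with a median log2 fold change of -1.55. Their summed linear value was 26886, 37089 and 19943 in ctrl 373, 374 and 375. It was 19434, 25073 and 18002 in HL60 early ch-, 20392, 21346 and 14889 in ML1 early ch-, 11284, 10765 and 8744 in HL60 early ch+, and 9497, 9873 and 9091 in ML1 early ch+ libraries, so that early ch+ sums lay below every control and every early ch- sum. Late sums were 14823, 14128 and 14993 with HL60 and 13688, 11722 and 12062 with ML1. The most abundant of them, Rgs5, a pericyte gene, made up 37.5% of the sum and fell by 0.71 (SE 0.15, adjusted p = 0.00334, 6 of 6 libraries below every control). The part of smooth muscle cells or pericytes in the values of Casq2 and Ldb3 was not tested.

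Between groups, markers of blood moved with the sarcomere genes that rose. Within early ch+ cells HL60 library 524 had the highest red cell sum and the lowest Acta1 value (5.32), and the relation within groups was not tested. Of 7 red cell genes (Hba-a1, Hba-a2, Hbb-bs, Hbb-bt, Alas2, Slc4a1 and Epb42) 7 were higher in early ch+ and 7 in early ch- cells than in controls, with medians of 4.02 and 3.96, and 4 were lower in late cells. Their summed linear value was 328, 431 and 689 in ctrl 373, 374 and 375. It was 7605, 7795 and 4989 in HL60 early ch-, 7218, 10186 and 7847 in ML1 early ch-, 8686, 12889 and 4339 in HL60 early ch+, and 11656, 5895 and 8212 in ML1 early ch+ libraries. Late sums were 122, 91.8 and 91.7 with HL60 and 91.3, 87.1 and 99.7 with ML1, so that early, control and late libraries did not overlap. Hbb-bs, a beta-globin gene and 44.5% of the sum, rose by 4.22 in early ch+ (SE 0.24, adjusted p = 1.28e-12) and 4.12 in early ch- cells (SE 0.24, adjusted p = 2.4e-12), 6 of 6 libraries above every control in each.

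Of 10 white cell genes (Ptprc, Laptm5, Coro1a, Cd52, Csf1r, Itgam, Lyz2, S100a8, S100a9 and Mpo) 6 were tested, with 6 higher in early ch+ and 5 in early ch- cells than in controls and 2 lower in late cells. Their sums were 471, 262 and 403 in ctrl 373, 374 and 375, 1607, 1588 and 1254 in HL60 early ch-, 1625, 1998 and 2565 in ML1 early ch-, 1522, 2216 and 987 in HL60 early ch+, and 2032, 1089 and 2211 in ML1 early ch+ libraries. Late sums were 191, 260 and 128 with HL60 and 113, 195 and 202 with ML1, below every control and every early library. Lyz2, lysozyme, the most abundant (36.3% of the sum), rose by 1.03 in early ch+ cells (SE 0.33, adjusted p = 0.0769, 4 of 6 libraries above every control). Ptprc, which encodes the leukocyte surface protein CD45, read 2.49 to 2.61 in controls, 2.67 to 5.92 in early ch-, 3.81 to 5.58 in early ch+ and 2.36 to 2.54 in late cells. By the study's methods, CD45 beads and staining for CD45 and the red cell marker Ter119 came before the sort. Red and white cells make no sarcomeres, and the part of the blood cells, or of what came with them, in the sarcomere values was not tested.

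**Figure D4:**
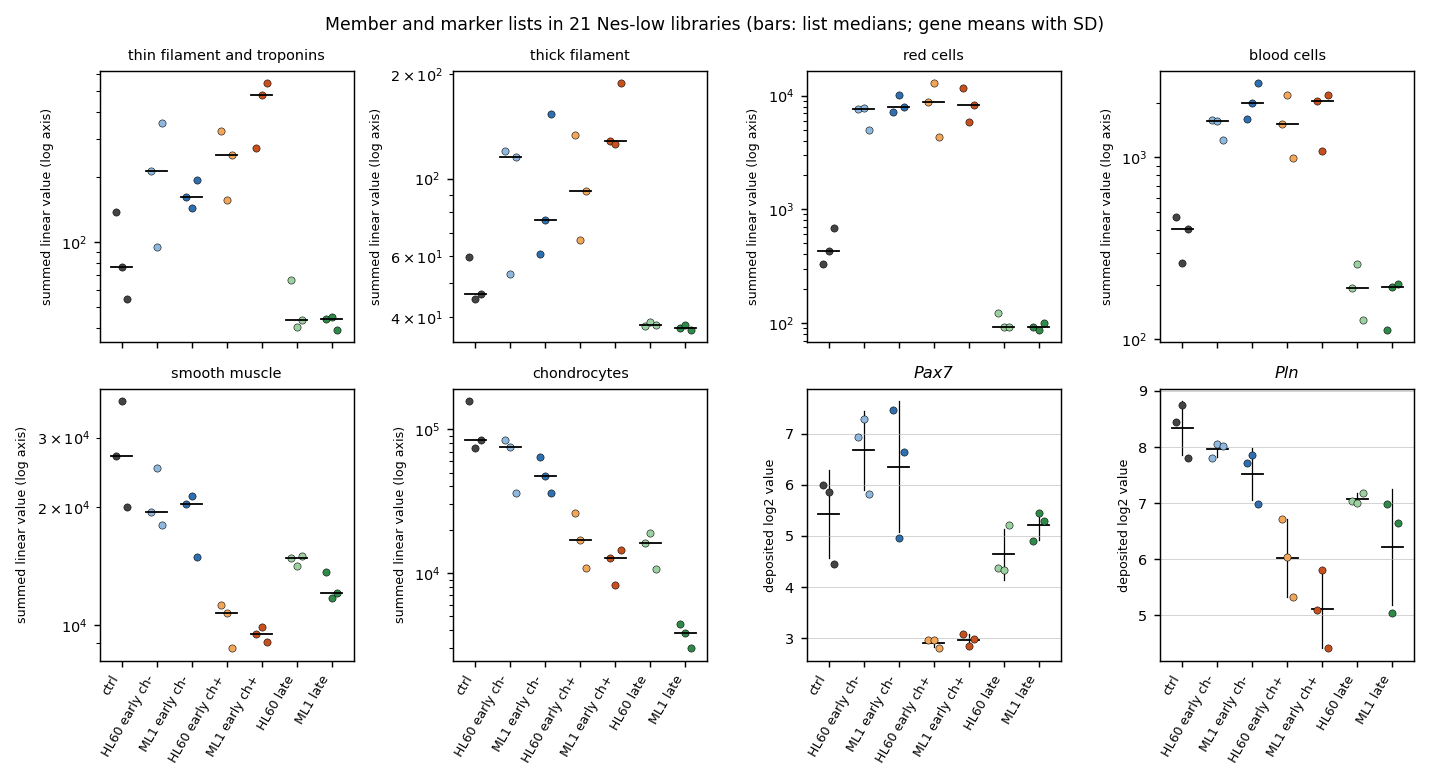
Summed linear values of gene lists (log axes) and log2 values of Pax7 and Pln in the 7 groups of 3 libraries (horizontal axes), with each point a library. The bar is the group median for the list sums. For Pax7 and Pln it is the group mean, with a line for the SD. Red cell sums are between 4339 and 12889 in early libraries and at most 122 in late ones, and Pax7 is at most 3.07 in early ch+ cells and at least 4.33 in all other libraries.

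Other cell types of the marrow moved differently again. Of 8 chondrocyte genes 8 were lower in early ch+ cells than in controls (median -3.99), led in abundance by Col2a1, type II collagen, which fell by 2.72 (SE 0.43, adjusted p = 0.00015, 6 of 6 libraries below every control), and 0 of 8 were called by limma in early ch- cells, with 1 at an unadjusted p under 0.05. Of 11 mesenchymal stromal genes 7 were higher, and Cxcl12, 62.2% of their sum, rose by 0.88 (SE 0.19, adjusted p = 0.00395, 6 of 6 above every control). Of 6 tested endothelial genes limma called 0, 0 being at an unadjusted p under 0.05, with Cdh5, the vascular cadherin, at 0.23 (SE 0.37, adjusted p = 0.816). Of 8 osteoblast genes limma called 0, 1 being at an unadjusted p under 0.05, with Bglap, osteocalcin, at -0.47 (SE 0.56, adjusted p = 0.732). Even so, Bglap, Bglap2, Sp7 and Ibsp each had 6 of 6 early ch+ libraries below every control, as 3.9% of all tested genes did, and the sums of the 8 were 92100 to 103526 in early ch+ cells and 119462 to 132317 in controls. Of 3 tested tendon genes 1 was lower, Fmod, fibromodulin, which fell by 2.42 (SE 0.47, adjusted p = 0.0016, 6 of 6 below every control). The part of any of these cell types in the sarcomere values was not tested.

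The genes outside all lists whose log2 values followed the mean of the 15 most closely over the 21 libraries were Chrdl1 (r = 0.870), Ltf (0.852), Cd24a (0.850), Hemgn (0.839) and Chil3 (0.838), then Sec11c (0.837), Tent5c (0.835), Car1 (0.832), Me2 (0.832) and mt-Nd5 (0.831). The points share their groups, so these values describe a pattern over 4 groups. Ltf, lactoferrin of neutrophil granules, had group means of 3.87 in controls, 6.52 in early ch-, 6.51 in early ch+ and 3.02 in late cells. Hemgn, a gene of blood progenitors, had 4.16, 6.40, 6.13 and 3.22 in the same order.

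Several of these genes overlap others on the genome. By the study's methods the reads were strand-specific and were counted by strand, and most overlapping partners lie on the opposite strand. Acta1 overlaps Gm20388 (mean log2 value 7.28), Atp2a1 overlaps Rabep2 (5.79), Mb overlaps Apol6 (4.26) and Tnnt3 overlaps Prr33 (3.19). Among the untested genes, Tnnc1 overlaps Nisch (11.08), Myl3 overlaps Pth1r (10.37) and Tnnc2 overlaps Ube2c (5.52), all opposite in strand.

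Promoter sequences are shown for 5 tested genes, the high-moving Acta1, Atp2a1 and Xirp2 and the low-moving Casq2 and Ldb3, since they moved in opposite directions in early ch+ cells. RefSeq promoters (GRCm38.p6, from upstream of the annotated start to shortly past it) were found for 29 of the 36 genes and 12 of the 15 tested. They were searched on both strands for TATAAA, for the E-box CAGCTG, for the MCAT motif CATTCC, and for the MEF2 site and the CArG box, bound by muscle regulators MEF2 and SRF. Capitals mark the matches. Acta1 (minus strand, chr8:123894726-123895025) has the E-box, a CArG box, MCAT and TATAAA in that order, with first bases at -221, -73, -46 and -7 from the annotated start. Atp2a1 (minus strand, chr7:126463024-126463323) has the E-box at -55, Xirp2 (plus strand, chr2:67445752-67446051) a MEF2 site at -74, Casq2 (plus strand, chr3:102086165-102086464) a MEF2 site at -69, and Ldb3 (minus strand, chr14:34588632-34588931, the first of its 2 promoters) a CArG box at -35.
Acta1: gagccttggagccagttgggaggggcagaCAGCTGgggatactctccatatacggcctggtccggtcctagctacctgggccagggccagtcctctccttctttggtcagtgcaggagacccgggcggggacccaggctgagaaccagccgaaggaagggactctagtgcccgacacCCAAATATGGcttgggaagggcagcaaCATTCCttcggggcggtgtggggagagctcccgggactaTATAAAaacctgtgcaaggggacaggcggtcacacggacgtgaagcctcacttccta
Atp2a1: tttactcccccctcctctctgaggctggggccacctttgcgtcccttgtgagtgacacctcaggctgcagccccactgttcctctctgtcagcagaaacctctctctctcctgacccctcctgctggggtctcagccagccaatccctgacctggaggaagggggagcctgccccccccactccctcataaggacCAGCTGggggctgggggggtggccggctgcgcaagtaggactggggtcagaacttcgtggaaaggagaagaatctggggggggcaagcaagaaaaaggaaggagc
Xirp2: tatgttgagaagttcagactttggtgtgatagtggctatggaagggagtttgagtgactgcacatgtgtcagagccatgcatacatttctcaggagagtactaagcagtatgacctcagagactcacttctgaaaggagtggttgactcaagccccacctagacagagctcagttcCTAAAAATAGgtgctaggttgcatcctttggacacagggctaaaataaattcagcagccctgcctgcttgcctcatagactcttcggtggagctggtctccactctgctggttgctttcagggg
Casq2: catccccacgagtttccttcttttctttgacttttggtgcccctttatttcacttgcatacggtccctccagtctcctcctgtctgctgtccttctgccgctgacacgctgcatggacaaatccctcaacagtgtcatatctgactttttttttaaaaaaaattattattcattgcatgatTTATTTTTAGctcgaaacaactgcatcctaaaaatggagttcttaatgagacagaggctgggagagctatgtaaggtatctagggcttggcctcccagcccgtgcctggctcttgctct
Ldb3: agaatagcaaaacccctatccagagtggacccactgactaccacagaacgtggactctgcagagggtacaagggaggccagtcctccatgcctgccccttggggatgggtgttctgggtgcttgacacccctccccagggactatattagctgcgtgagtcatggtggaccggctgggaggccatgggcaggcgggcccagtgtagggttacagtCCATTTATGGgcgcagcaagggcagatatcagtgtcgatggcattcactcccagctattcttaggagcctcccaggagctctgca

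Counted by gene, with a match in any of its promoters (36 promoters for 29 genes), 13 held CAGCTG, 11 CATTCC, 8 TATAAA, 7 a MEF2 site and 4 a CArG box. Among all 32841 promoters of the same length, 16.3% held CAGCTG, 14.7% CATTCC, 13.6% TATAAA, 3.19% a MEF2 site and 1.63% a CArG box. The first figures count genes and the second single promoters, so they are not on the same footing. Both Xirp2, which rose in early ch+ cells, and Casq2, which fell, have a MEF2 site, and both Acta1 and Ldb3 have a CArG box. These matches describe letters in the window and not binding.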

How the data were processed

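The values are log2 expression values that the authors had regularized with DESeq2 before deposition (STAR 2.5.1b, RSEM 1.2.29 and DESeq2 1.10.1 per the submitters' processing notes, mm10). They run from -2.33 to 22.44, and the paper's methods speak of log10. They were tested as deposited in R 4.3.3 with limma 3.58.1 (trend, two-sided, Benjamini-Hochberg, adjusted p under 0.1) on 12976 of 26852 genes with a mean of at least 3.32, in fits of 4 groups (pooled comparisons) and 7 groups (lines apart). Of the gene IDs, 26686 had names. The code was run on simulated data first.

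Alternatives were no filter, quantile normalization, rescaling to library totals, a pseudocount of 1, robust variance, sample weights, the compared groups alone, 7 groups, each library left out, no ML1 late libraries, an adjusted p under 0.05 and a log2 change of 1 or more either way.

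All 36 genes are named by role. Values in every library are given for the gene of highest mean in each role and for the 3 largest and 2 smallest absolute fold changes of early ch+ against ctrl. From other lists the most abundant gene is named, with the 3 largest changes of each list of other muscle genes, every myogenic regulator and cardiac gene, and the 10 genes most alike. Pecam1 and Ptprc, the per-library values of other genes, and the 5 promoters (RefSeq, GRCm38.p6) were chosen after values were seen. Lists are of other sarcomere, excitation and metabolic muscle genes, myogenic regulators, cardiac and smooth muscle, tendon, blood, red, endothelial and mesenchymal stromal cells, chondrocytes and osteoblasts. The genes and lists were chosen with earlier results of these data known.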

Additional observations from a re-analysis of the deposited data

Results flagged for a closer look

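Across 45 sets of 6 libraries (the 15 tested genes in early ch-, early ch+ and late cells) 4 held a library far from the other 5, where chance gives about 1 in 20. Ldb3 was lowest in ML1 early ch- library 543 at 5.03, with the next library at 7.05. Atp2a1 was highest among late cells in ML1 late library 581 at 3.97, with the next at 2.74. Casq2 was highest among early ch+ cells in HL60 early ch+ library 525 at 4.54, with the next at 3.74. Ckm was highest among late cells in ML1 late library 582 at 3.09, with the next at 2.78. Of 60 tests of these genes between the lines, limma called 0, and the counts at an unadjusted p under 0.05 are in the text above.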

How the results depend on the processing

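Counts of called genes, over the 15 tested unless said otherwise, moved under several settings, and the cause was not tested beyond the settings' own construction. With no filter all 35 genes with values were tested, and the counts are not comparable with those over 15. The count was then 2 for early ch- against ctrl, 19 for late against early ch+ and 1 for ML1 early ch+ against ch-. Against ctrl it was 1 for HL60 late, 2 for ML1 late, 3 for HL60 early ch+, 1 for HL60 early ch- and 1 for ML1 early ch-. Of these, HL60 early ch+ alone has a share of all 26852 genes beside it (1.59%), so the others cannot be read against all genes. Rescaled to library totals the count was 1 for late against ctrl, where 64% of all tested genes were called in either direction. It was 8 for late against early ch- (beside 78.3%), 0 for HL60 late (beside 42.6%) and 1 for ML1 late (beside 67.7%). Without the ML1 late libraries it was 1 for late against ctrl, a gene outside the 4 of the main fit. With 7 groups it was 7 for early ch- against ctrl, and with robust variance 1 for early ch+ against early ch-. At an adjusted p under 0.05 it was 1 for early ch+ against early ch-, HL60 late against ctrl and ML1 early ch+ against ch-. Between HL60 and ML1 late it was 2 with sample weights and 1 with the compared groups alone. Apart from the rescaled fits and HL60 early ch+ without a filter, the counts in this section have no share of all tested genes under the same setting beside them. The same holds for the counts with single libraries left out, here and above. Such counts show how far the calls moved and cannot be read against all genes.

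With each library left out, counts ran from 2 to 6 for late, 8 to 12 for early ch+ and 2 to 7 for early ch- against ctrl, 1 to 3 for early ch+ against early ch-, 11 to 11 and 13 to 14 for late against early ch+ and early ch-. By line they ran from 1 to 3 (HL60 late), 3 to 4 (ML1 late), 4 to 11 (HL60 early ch+), 9 to 11 (ML1 early ch+), 1 to 7 (HL60 early ch-) and 2 to 4 (ML1 early ch-) against ctrl, 1 to 2 (HL60) and 1 to 4 (ML1) for ch+ against ch-, and 0 to 0 between lines. Every alternative kept 8 of 12 calls for early ch+ and 2 of 4 for early ch- against ctrl, 1 of 2 for early ch+ against early ch-, 11 of 11 and 8 of 13 for late against early ch+ and early ch-, and 0 of 4 for late against ctrl. Rescaling moved Mef2d to 0.25 in late against ctrl and 0.38 against early ch-, and Mef2a to 0.27 and 0.25 in late against early ch+ and early ch-. It also moved the median of all genes, to 0.71 against ctrl, 0.63 against early ch+ and 0.77 against early ch-. These changes of sign came with that shift of all genes, and each value stayed below the median. No paired analysis was possible because the labels and the paper do not match single ch+ and ch- libraries. Depth is unknown without counts.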
